A study of Mus musculus with 6 samples.

Results

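The neighbour genes of *Serpinh1* are 10 protein-coding genes, *Tsku*, *Lrrc32*, *Dgat2*, *Map6*, *Gdpd5*, *Arrb1*, *Slco2b1*, *Spcs2*, *Pold3* and *Pgm2l1*, which lie within 1.1 Mb of *Serpinh1* on mouse chromosome 7 (GRCm38). They are 10 of the 50600 genes in the count table, and 10 of 10 passed the filter on low counts, which kept 13475 genes. They are not all the genes there. The same stretch holds 21 other protein-coding genes, of which 15 passed the filter. The 10 were picked with the flt3L-/- against wt comparison of these libraries known, and by the p-value of that comparison they take places 1, 2, 3, 5, 6, 7, 8, 9, 11 and 14 among the 25 neighbours that passed. Their differences between genotypes are therefore given as a description, without a test.

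Polyadenylated RNA was sequenced from the freshly sorted cardiac side population (SP), the heart cells that exclude the Hoechst dye. Wild-type (wt) mice were C57BL/6NRj, and mice without the cytokine Flt3 ligand were C57BL/6Flt3Ltml/mx on a C57BL/6N background, which carry the disrupted allele in every cell. All mice were 8 to 12 weeks old, and each of the 3 libraries per group pooled the sorted cells of 4 mice, so single animals cannot be seen. A wt sort and an flt3L-/- sort were made on each of 3 dates (22 and 24 August 2016 and 29 August 2017), and these pairs are numbered 1, 2 and 3. Total counts per library lay between 24370913 and 31145519. The detection limit was set at 3 counts, which covers counting error only and equalled 0.109 to 0.127 CPM (a gene's count scaled to the TMM-adjusted total of its library). *Flt3l*, the targeted gene, lies 54.2 Mb from *Serpinh1* on the same chromosome. Its level was 8.67, 10.8 and 12.1 CPM for wt of pairs 1, 2 and 3 against 13.6, 12.4 and 14.4 CPM for those labelled flt3L-/-. The targeted gene was thus not lower in the libraries labelled flt3L-/-, each of which lay above every wt library. Its log2 fold change was 0.37 ± 0.20 (SE), with 0.64, 0.20 and 0.26 within the pairs. Counts per gene do not show whether its reads came from the disrupted stretch. The dye pump gene *Abcg2* averaged 201 CPM and the surface marker gene *Ly6a* (Sca1) 1045 CPM over the 6 libraries. The 5 dye pump and SP markers summed to 1813 to 2528 CPM for wt and 2283 to 3440 CPM for those labelled flt3L-/-. Of these markers, 1 (*Ly6a*) was higher and 0 were lower in every pair.

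*Serpinh1* encodes Hsp47, a chaperone of the endoplasmic reticulum that binds procollagen while it folds, and its transcription is known to respond to heat shock factors. Its neighbours have varied jobs, from microtubule binding and DNA replication to lipid synthesis and the secretory pathway. Nearby genes on a chromosome may be transcribed from separate promoters and still lie in 1 chromatin domain.

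On the side of lower coordinates, *Tsku* lay at 98350668 to 98361328 (minus strand), 984.0 kb from the body of *Serpinh1*, and *Lrrc32* at 98489283 to 98502181 (plus strand), 843.2 kb away. *Dgat2* lay at 99153658 to 99182719 (minus strand), at 162.7 kb. *Map6* came next at 99267447 to 99337137 (plus strand), 8.2 kb from *Serpinh1*, which itself occupied 99345376 to 99353239 on the minus strand, so that the ends of the genes faced each other. On the other side, *Gdpd5* lay at 99381414 to 99461877 (plus strand), 28.2 kb away, and the starts of *Serpinh1* and *Gdpd5* faced each other. *Arrb1* followed at 99535466 to 99606771 (plus strand, 182.2 kb), then *Slco2b1* at 99657804 to 99711340 (minus strand, 304.6 kb) and *Spcs2* at 99837569 to 99863462 (minus strand, 484.3 kb). *Pold3* lay at 100082111 to 100121565 (minus strand, 728.9 kb) and *Pgm2l1* at 100227394 to 100278868 (plus strand, 874.2 kb). Of the members and *Serpinh1*, exon bases were shared with another gene only for *Slco2b1*, with 7.91% in common with the antisense gene *Gm15635* and 1.31% with the antisense gene *Gm34280*. Because the libraries do not keep strand, reads from those bases cannot be assigned to one or the other gene. The antisense gene *Gm15635* had 11.7, 16.3 and 18.5 CPM for wt against 20.1, 16.5 and 15.5 CPM for those labelled flt3L-/-, in the order of the pairs, and *Gm34280* had at most 0.708 CPM.

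Promoter sequences are shown for *Serpinh1*, the reference point, and for *Slco2b1*, a neighbour whose bases before the outermost of its 3 RefSeq starts hold a heat shock element core. They come from RefSeq on GRCm38.p6 and are the 250 bases before the annotated start on the minus strand, chr7:99353240-99353489 for *Serpinh1* and chr7:99711341-99711590 for *Slco2b1*. Promoter sequences of 5 of the 10 neighbours (*Tsku*, *Slco2b1*, *Spcs2*, *Pold3* and *Pgm2l1*) were matched. Searched on both strands were the heat shock element core (GAANNTTC and TTCNNGAA), the TATA box (TATAAA), the GC box (GGGCGG) and the CCAAT box (CCAAT), and matches are in capitals.
Serpinh1: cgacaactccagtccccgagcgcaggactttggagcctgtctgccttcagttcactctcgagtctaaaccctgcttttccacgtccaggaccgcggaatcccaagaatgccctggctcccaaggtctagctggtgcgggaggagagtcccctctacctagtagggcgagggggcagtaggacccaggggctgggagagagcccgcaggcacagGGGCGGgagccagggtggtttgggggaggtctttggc
Slco2b1: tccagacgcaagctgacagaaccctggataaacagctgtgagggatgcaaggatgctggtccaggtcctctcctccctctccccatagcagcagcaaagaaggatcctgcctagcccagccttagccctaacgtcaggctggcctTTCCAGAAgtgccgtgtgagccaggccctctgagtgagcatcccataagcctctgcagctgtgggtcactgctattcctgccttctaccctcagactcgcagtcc
The *Serpinh1* stretch held 1 GC box, 37 to 32 bases before the start, and no heat shock element core, TATA box or CCAAT box. Its GC content was 63.6%, against a median of 52.4% over all RefSeq promoters. The *Slco2b1* stretch held 1 heat shock element core, 105 to 98 bases before the start, with a GC content of 58%. Of the other RefSeq starts of *Slco2b1*, 1 had 2 overlapping heat shock element cores and the other a CCAAT box. All 250 bases of the stretch with the 2 cores were annotated exon of *Slco2b1* itself. The other 4 matched neighbours had no heat shock element core and no TATA box in these 250 bases. *Pgm2l1* had 5 GC boxes, *Tsku* the same 2 before each of its 2 starts, *Pold3* 1, and *Spcs2* a CCAAT box. Among all 32851 promoters of the same length, 12.8% held the heat shock element core, 32.7% the GC box, 12.4% the TATA box and 33.9% the CCAAT box. These shares are per promoter and not per gene, and *Slco2b1* was searched at 3 starts. A match is a run of letters and says nothing of a factor bound there.

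*Serpinh1* was measured at 1139, 984 and 942 CPM for wt of pairs 1, 2 and 3 against 4842, 3394 and 2737 CPM for those labelled flt3L-/-. The groups did not overlap, and the log2 fold change was 1.80 ± 0.19 (SE from the fit, 3 pairs), with 2.09, 1.79 and 1.54 within the pairs. In bulk RNA of sorted cells, fewer cells of a type and less RNA per cell cannot be told apart, which holds for every level below.

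*Map6*, nearest to *Serpinh1*, encodes a protein that binds and stabilizes microtubules. It had 36.5, 33.8 and 36.7 CPM for wt against 73.7, 61.7 and 57.9 CPM for those labelled flt3L-/-. The wt libraries lay close together, at 35.7 ± 1.60 CPM (SD, n = 3), and each library labelled flt3L-/- was above all of them, with a mean of 64.4 ± 8.24 CPM. The log2 fold change was 0.85 ± 0.14 (SE), or 1.80-fold, with 1.01, 0.87 and 0.66 within the pairs. As for *Serpinh1*, the difference was widest in pair 1 and narrowest in pair 3.

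*Gdpd5*, next on the other side, encodes a membrane phosphodiesterase that releases anchored proteins from the cell surface. It had 56.9, 63.2 and 83.7 CPM for wt against 142, 82.4 and 125 CPM for those labelled flt3L-/-. Here the groups overlapped, since the library labelled flt3L-/- of pair 2 lay below the wt library of pair 3, although each pair by itself was higher in flt3L-/-. The log2 fold change was 0.76 ± 0.22 (SE), and the pairs gave 1.32, 0.38 and 0.57. Without pair 1 it was 0.48.

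*Dgat2* and *Arrb1* were next in distance on the lower and higher side. *Dgat2*, which carries out the last step of triglyceride synthesis, had 15.7, 18.0 and 20.3 CPM for wt against 21.2, 27.8 and 19.9 CPM for those labelled flt3L-/-. Pairs 1 and 2 were higher and pair 3 was nearly level, so the groups overlapped, and the log2 fold change was 0.34 ± 0.19 (SE), 0.18 without pair 2 and 0.53 without pair 3. *Arrb1* encodes beta-arrestin 1, which uncouples receptors from G proteins, and had 50.1, 46.6 and 32.1 CPM for wt against 50.7, 36.4 and 20.3 CPM for those labelled flt3L-/-. It ran the other way, at −0.33 ± 0.18 (SE) on the log2 scale, with 0.02, −0.36 and −0.66 within the pairs, and the groups overlapped. Without pair 1 this was −0.51, and without pair 3 it was −0.17.

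*Slco2b1* encodes a carrier that takes up organic anions. Its level was 92.0, 123 and 138 CPM for wt against 146, 119 and 139 CPM for those labelled flt3L-/-. Pair 1 alone set its log2 fold change of 0.21 ± 0.19 (SE), with 0.67 in that pair and −0.05 and 0.01 in pairs 2 and 3, and the value turned to −0.02 without pair 1. *Spcs2* encodes a subunit of the signal peptidase complex and had 139, 123 and 139 CPM in wt against 143, 157 and 150 CPM in the libraries labelled flt3L-/-. All its libraries labelled flt3L-/- lay above all wt libraries, yet the gap was small, with a log2 fold change of 0.17 ± 0.13 (SE) and 0.06 without pair 2.

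*Pold3* and *Pgm2l1*, farther out on the higher side, had the most even differences between pairs. *Pold3*, a subunit of DNA polymerase delta, had 31.1, 34.5 and 44.2 CPM for wt against 39.0, 44.6 and 51.6 CPM for those labelled flt3L-/-. The log2 fold change was 0.31 ± 0.13 (SE), and the pairs gave 0.33, 0.37 and 0.23. *Pgm2l1* encodes an enzyme that makes glucose 1,6-bisphosphate and had 9.60, 9.51 and 14.5 CPM for wt against 14.5, 14.4 and 23.9 CPM for those labelled flt3L-/-. Its log2 fold change was 0.64 ± 0.16 (SE), with 0.59, 0.60 and 0.72 within the pairs. Both genes overlapped between groups, because pair 3 was higher than the other pairs in wt as well, and both were higher in flt3L-/- within every pair.

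On the lower side, *Lrrc32* and *Tsku* went opposite ways. *Lrrc32* encodes GARP, a cell surface protein that holds latent TGF-beta, and had 280, 234 and 239 CPM for wt against 343, 258 and 381 CPM for those labelled flt3L-/-. The log2 fold change was 0.37 ± 0.16 (SE), with 0.29, 0.14 and 0.67 within the pairs and 0.22 without pair 3, and the groups overlapped because pair 2 stayed below the highest wt library. *Tsku* encodes the secreted leucine-rich proteoglycan Tsukushi and had 2.41, 2.06 and 2.46 CPM for wt against 1.38, 1.36 and 1.11 CPM for those labelled flt3L-/-. It was the only neighbour of the 10 with every library labelled flt3L-/- below every wt library, at −0.85 ± 0.37 (SE), with −0.77, −0.57 and −1.10 within the pairs. It rested on 28 to 66 counts per library, against 6023 to 9630 for *Lrrc32*.

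**Figure D1:**
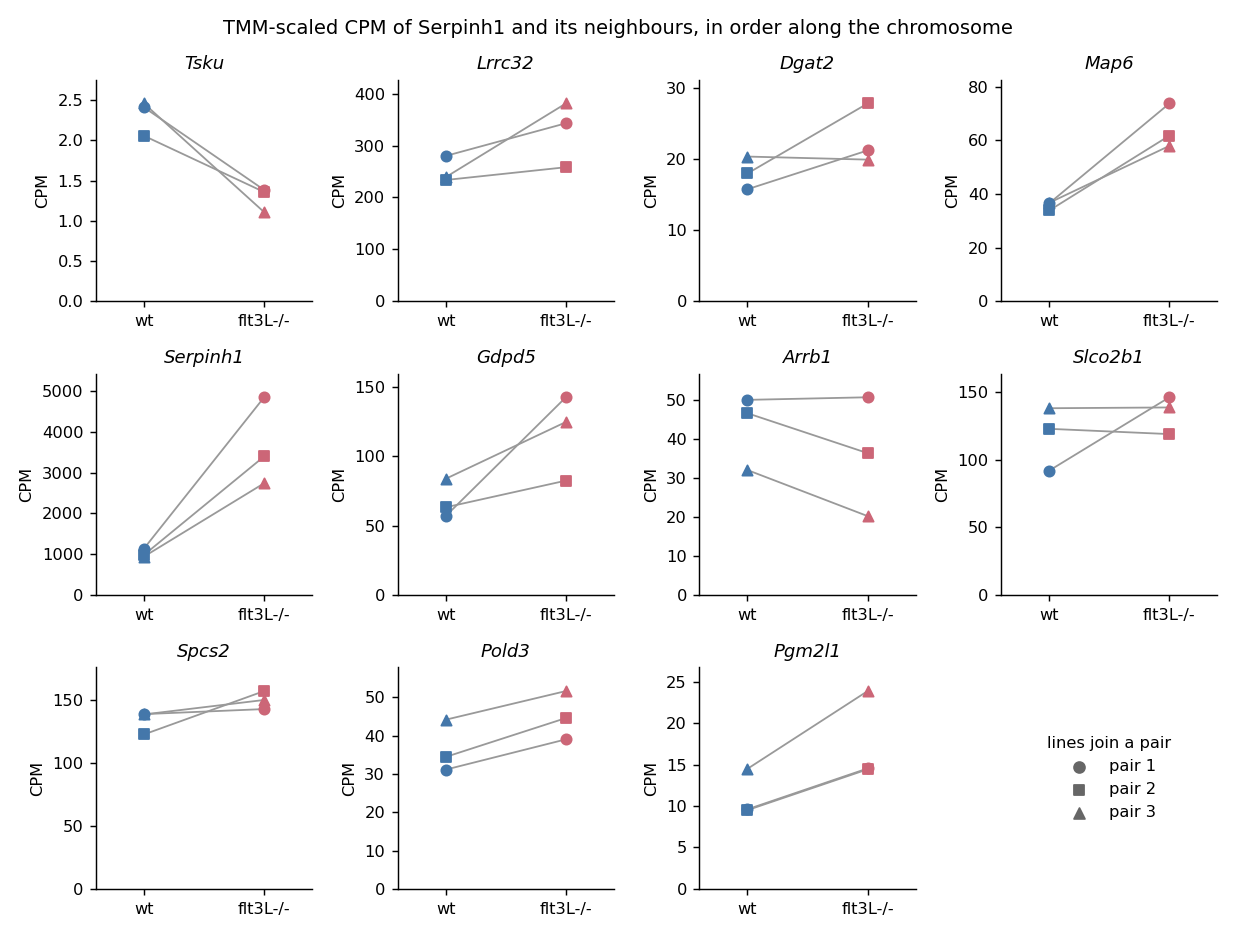
Level of *Serpinh1* and its 10 neighbours in each library, in CPM on linear axes that start at 0, with a panel per gene in the order along the chromosome. Points are single libraries, wt (blue) and labelled flt3L-/- (red), their shapes mark the pairs, and lines join the libraries of a pair. *Map6* runs from 33.8 to 36.7 CPM in wt and from 57.9 to 73.7 CPM in flt3L-/-, while *Tsku* lies below 2.5 CPM throughout.

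Counted over the 10 neighbours, 6 were higher in flt3L-/- in every pair (*Map6*, *Gdpd5*, *Lrrc32*, *Spcs2*, *Pold3* and *Pgm2l1*), 1 was lower in every pair (*Tsku*) and 3 were mixed. Of all 13475 genes, 14.2% were higher and 11.5% lower in every pair. All libraries labelled flt3L-/- lay above all wt libraries for 2 neighbours, and below them for 1, where all genes gave 3.53% and 2.92%. The median log2 fold change of the neighbours was 0.33, against −0.00027 over all genes. Because the neighbours were chosen on this contrast, nothing is read from these counts. No gene passed an adjusted p under 0.05 for genotype in edgeR (0%), 484 (3.59%) had an unadjusted p under 0.05, and DESeq2 called 21. The paper, with an earlier edgeR version, did list genes that passed this threshold, *Serpinh1* among them. Why the edgeR results differ was not tested.

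By distance, the 4 neighbours within 200 kb had a median log2 fold change of 0.55 and ranged from −0.33 to 0.85, and the 6 beyond had a median of 0.26 and ranged from −0.85 to 0.64. The 4 on the lower side had a median of 0.36, and the 6 on the higher side 0.26. These genes were picked on this contrast, so no trend with distance is read from the medians. *Rps3*, a tested gene 124.7 kb away that was not picked, stood at 0.09. Of the picked genes, *Pgm2l1* at 874.2 kb stood at 0.64 and *Slco2b1* at 304.6 kb at 0.21.

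The 25 tested neighbours together are all the tested protein-coding genes of the stretch. They include the 10 members, and *Serpinh1* as its centre was chosen with this contrast known, so nothing is read from their counts. Of the 25, 8 were higher and 4 lower in every pair, where all genes gave 14.2% and 11.5%. Their median log2 fold change was 0.07. The 15 that remain without the 10 members are, like the members, not free of the choice made on this contrast. Of these, 2 were higher in every pair (*Rps3* and *Gucy2d*), 3 were lower in every pair (*P4ha3*, *C2cd3* and *Ppme1*) and 10 were mixed, and their median log2 fold change was −0.06. The other 1007 tested genes of chromosome 7 had a median of 0.04. The names of these 5 were taken after their values had been seen.

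*Rps3*, a protein of the small ribosomal subunit, *Thap12* and the phosphatase methylesterase gene *Ppme1* had the highest length-scaled levels of the 15, at 27.8, 11.9 and 11.2 CPM per kilobase of exon, averaged over all libraries. Their log2 fold changes were 0.09, −0.12 and −0.13. The lowest fold change was that of *P4ha3*, a catalytic subunit of the prolyl 4-hydroxylase that modifies collagen, at −0.89 ± 0.32 (SE) and 932.3 kb, with 5.83, 2.72 and 1.34 CPM for wt against 3.24, 1.36 and 0.752 CPM for those labelled flt3L-/-. The highest was that of the potassium channel subunit gene *Kcne3*, at 0.61 ± 0.70 (SE), with pairs at −0.94, 1.71 and 0.87. At the edge of the 1.1 Mb, the outermost members were *Tsku* (984.0 kb) and *Pgm2l1* (874.2 kb), described above. The first tested genes beyond were *Capn5* at 1167.1 kb, with a log2 fold change of −0.55 ± 0.31 (SE), and *Ucp2* at 1140.1 kb, with 0.05 ± 0.36.

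**Figure D2:**
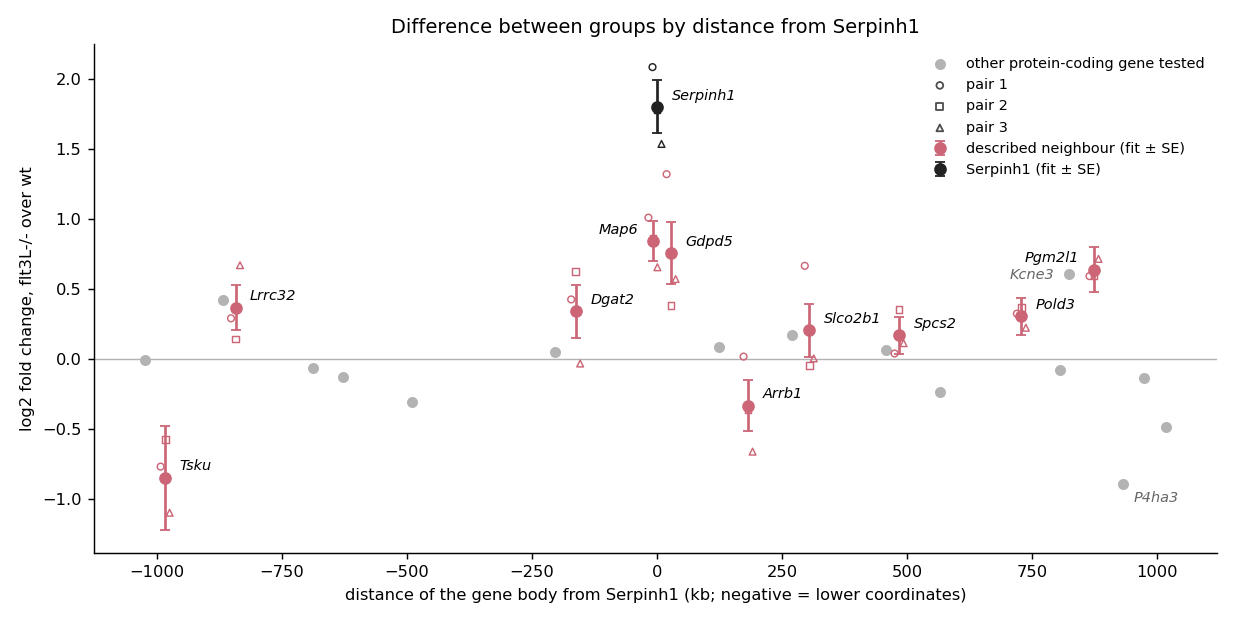
Log2 fold change, flt3L-/- against wt, of the tested protein-coding genes by distance in kilobases from *Serpinh1*. Filled points with bars (fit and SE) are the 10 neighbours (red) and *Serpinh1* (black), open symbols are the single pairs, and grey points are the 15 other genes. *Map6* at 8.2 kb and *Pgm2l1* at 874.2 kb stand at 0.85 and 0.64, and *P4ha3* at 932.3 kb stands at −0.89.

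Levels of different genes were compared per kilobase of exon (RPKM, computed from CPM). In wt, *Lrrc32* was the highest neighbour at 53.5 ± 5.40 RPKM (SD, n = 3), followed by *Spcs2* at 31.6 ± 2.19 and *Slco2b1* at 19.8 ± 3.94. *Gdpd5* (10.1 ± 2.08 RPKM), *Pold3* (7.95 ± 1.47) and *Dgat2* (5.84 ± 0.745) came next. *Map6* (3.90 ± 0.174 RPKM), *Arrb1* (3.84 ± 0.855), *Pgm2l1* (1.17 ± 0.297) and *Tsku* (0.757 ± 0.072) closed the order. Neighbours in this order overlapped in wt for *Gdpd5* and *Pold3* and for *Map6* and *Arrb1*, and the group means kept this order in the libraries labelled flt3L-/-. Single libraries did not, since *Map6* (8.05 RPKM) lay above *Dgat2* (6.88 RPKM) in the library labelled flt3L-/- of pair 1, and *Pgm2l1* (2.49 RPKM) above *Arrb1* (1.81 RPKM) in that of pair 3. In these libraries the ranges overlapped for *Slco2b1* and *Gdpd5*, *Pold3* and *Dgat2*, *Dgat2* and *Map6*, and *Arrb1* and *Pgm2l1*. *Serpinh1* stood at 418 ± 42.5 RPKM in wt, 7.81 times the level of *Lrrc32*. In rank among the 13475 genes, the neighbours spread from the 12.2 percentile (*Tsku*) to the 94.0 percentile (*Lrrc32*), and *Serpinh1* held the 99.5 percentile.

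**Figure D3:**
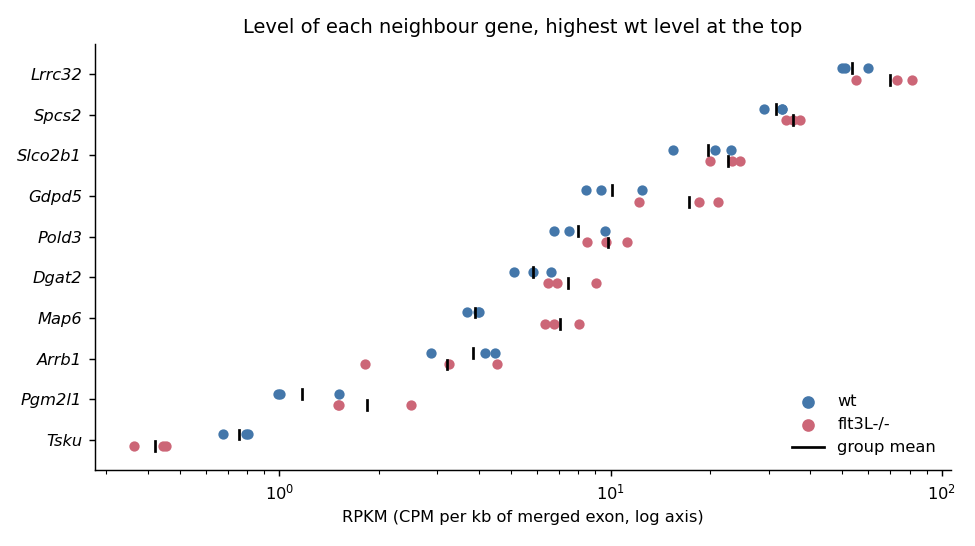
Length-scaled level (RPKM, log axis) of the 10 neighbours, highest wt level at the top. Points are single libraries (wt blue, labelled flt3L-/- red) and black ticks the group means. The wt means run from 53.5 (*Lrrc32*) to 0.757 (*Tsku*).

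The neighbours were picked on the genotype comparison and not on the sorting date, so the date was tested. Its test comes from the same fit as the genotype comparison and shares its residual spread, so it is not wholly free of the choice. None of the 10 differed between dates at an adjusted p under 0.05, nor did any of the 13475 genes (0%), in edgeR's quasi-likelihood F test on the date. At an unadjusted p under 0.05 there were 2 neighbours, beside 1116 genes (8.28%), and DESeq2 called 389 genes for the date but none of the neighbours. The 2 were *Arrb1* (unadjusted p = 0.0205, adjusted p = 0.598) and *Pgm2l1* (unadjusted p = 0.0316, adjusted p = 0.598). *Arrb1* was lower on the third date than on the first by a log2 difference of −0.98 ± 0.23 (SE), with means over both genotypes of 50.4, 41.5 and 26.2 CPM on the 3 dates. *Pgm2l1* was higher by 0.66 ± 0.20 (SE), with 12.1 CPM on the first date and 19.2 CPM on the third. *Pold3* had 35.1, 39.5 and 47.9 CPM (unadjusted p = 0.0906, adjusted p = 0.618), and *Spcs2*, at 141, 140 and 144 CPM, had an adjusted p of 0.978. For *Serpinh1* the date gave an adjusted p of 0.636.

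**Figure D4:**
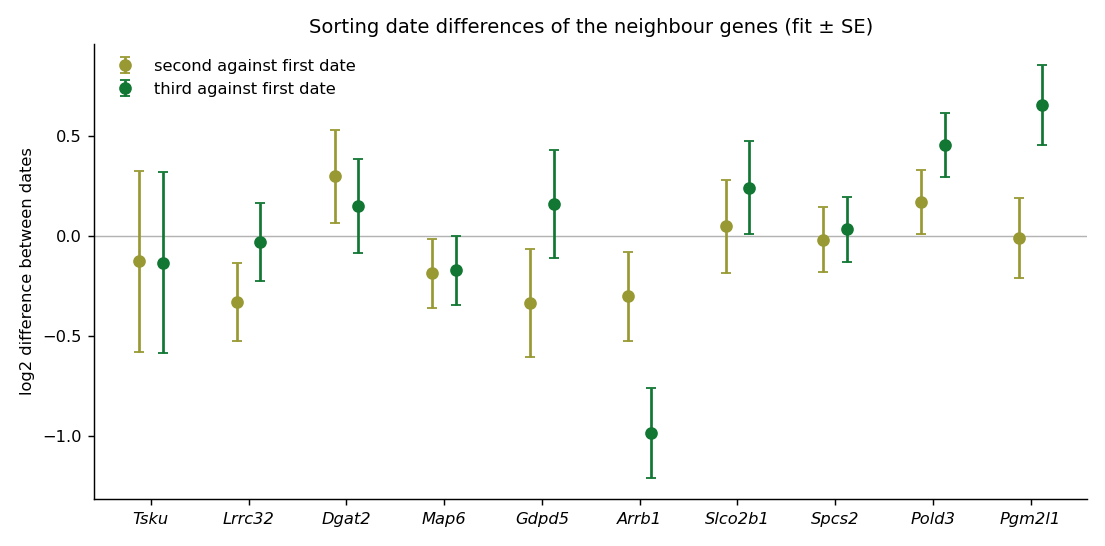
Log2 difference of each of the 10 neighbours between sorting dates, the second and the third against the first, with genotype in the model and bars for SE. *Arrb1* stands at −0.98 and *Pgm2l1* at 0.66 for the third date against the first, and none passed the adjusted threshold.

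Markers of the cell types that a cardiac sort can hold also varied between libraries. Summed levels of 5 endothelial markers were 6680 to 8822 CPM in wt and 6998 to 10378 CPM in the libraries labelled flt3L-/-, and 0 of 5 were higher or lower in every pair. The 5 fibroblast markers summed to 5680 to 14044 CPM and 2957 to 8806 CPM, with 2 lower in every pair, and the 4 cardiomyocyte markers to 79.9 to 114 CPM and 121 to 142 CPM, with 3 higher in every pair. The 5 macrophage markers summed to 34.0 to 1655 CPM in wt and 85.4 to 928 CPM in the libraries labelled flt3L-/-, with 0 higher or lower in every pair. Most of the highest macrophage sums was *Lyz2*, at 1527 CPM in wt of pair 3 and 844 CPM in the library labelled flt3L-/- of pair 2. Most of the highest fibroblast sum, in wt of pair 1, was *Dcn* at 10551 CPM. Sums of the 5 pericyte and smooth muscle markers were 347 to 692 CPM and 228 to 429 CPM, with 1 lower in every pair. Those of the 4 lymphocyte markers were 32.8 to 128 CPM and 18.5 to 67.0 CPM, with 2 of the 3 that passed the filter (*Nkg7* and *Ncr1*) lower in every pair, and those of the 3 erythroid markers 180 to 308 CPM and 271 to 361 CPM, with 1 higher in every pair. The 4 platelet markers (9.80 to 16.7 and 10.8 to 16.6 CPM) and the 3 mesothelial markers (20.8 to 51.3 and 35.1 to 48.9 CPM) were low, with 2 of 3 tested platelet markers (*Pf4* and *Ppbp*) higher in every pair, and the 3 adipocyte markers were at or near 0, with a highest sum of 0.317 CPM. The part of these cell types in the levels of the neighbours was not tested.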

How the data were processed

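The 6 RNA libraries of cardiac SP cells were 3 wt and 3 labelled flt3L-/-. The authors deposited raw counts of reads per gene, obtained from single unstranded reads of 81 bases (SMART-Seq v4) that were mapped to mm10 with STAR 2.5.2a, with up to 10 hits per read and random choice among equal hits, and counted by read start in exons of Ensembl release 88 with qCount. FastQC 0.11.3 is named in the submitters' processing notes. Random assignment can move reads between near-identical genes.

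Positions, biotypes and exon lengths came from GENCODE M21 (GRCm38), which held 50376 of the 50600 genes. Protein-coding genes over 1 CPM in at least 2 libraries were fitted in edgeR 4.0.16 on R 4.3.3 with TMM factors, sorting date and genotype, with glmQLFit and glmQLFTest (legacy = TRUE) and Benjamini-Hochberg adjustment over 13475 genes. The common dispersion was 0.0978, with 2 residual degrees of freedom. The SE of a log2 fold change or date difference was its absolute value divided by the square root of its F statistic in this fit. It is not the standard error of the differences within pairs. Log2 differences within pairs used a prior count of 2. DESeq2 1.42.0, other scalings, filters, all biotypes and each pair left out were alternatives. Figures were drawn with matplotlib 3.10.9.

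The pairs come from the sorting dates in the labels. Libraries of the same date correlated at 0.180, 0.104 and 0.116 across genes after removal of the group means (different dates −0.354 to 0.247; genes are not independent). No library was a copy of another, as the lowest chi-square per degree of freedom between 2 libraries was 38.8. Whether each sort came from other litters is not stated, so p-values measure the spread between these sorts. The named genes were the 10 neighbours, *Serpinh1*, *Flt3l*, genes sharing their exon bases, the 3 other genes of the stretch with the highest RPKM, and those with its highest and lowest fold change. The members, lists and tests were chosen with earlier results of these data known.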

Additional observations from a re-analysis of the deposited data

Results flagged for a closer look

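Among the 42 genes of other types in the same stretch, 9 had more than 3 counts in every library. The processed pseudogene *Gm18959*, 591.8 kb from *Serpinh1* at 99945062 to 99945716, was outside the comparisons above and was picked out because its level in the libraries labelled flt3L-/- lay above that in every wt library. It had 3.23, 3.57 and 3.91 CPM for wt against 4.55, 4.29 and 4.23 CPM for those labelled flt3L-/-, with a mean of 4.36 CPM in the latter. Its value is uncertain, since the authors spread reads at random over equally good hits and a processed pseudogene resembles its parent gene. It was the only gene of the 9 that met this criterion, beside 3.53% of the 13475 genes tested above. It was not fitted, and because it was picked by its values nothing is read from this.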

How the results depend on the processing

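The genotype comparison gave 0 called genes in edgeR under every scaling, filter and pair left out, and DESeq2 called 21 of 13475 (6 higher, 15 lower). *Serpinh1* and 1 neighbour, *Map6*, were among the 21. Both were chosen with this contrast known, so nothing is read from their calls. For the sorting date, DESeq2 called 389 genes, and leaving out 1 pair in turn gave 0 to 112 (112 without pair 2), while no neighbour was called under any alternative. With no replicate block, 0 genes were called and 262 had an unadjusted p under 0.05, against 484 with it, and the median log2 fold change of the neighbours was 0.33. The other genes of the stretch that were higher in every pair numbered 1 with library size only and 2 to 5 with a pair left out. Those lower in every pair numbered 5 with library size only and 4 to 5 with a pair left out. Among the neighbours, 6 were higher in every pair in the main fit, and 5 with library size only or with all biotypes. With a pair left out they numbered 6 to 7, where every pair means only the pairs that remain. Of the 10 neighbours, 9 kept the sign of their fold change in every alternative, and *Slco2b1* reached −0.02 without pair 1. The neighbours were chosen on this contrast in the same libraries, so nothing is read from these counts or from the kept signs. With 2 residual degrees of freedom and 28 to 66 counts for *Tsku*, small differences were not detectable.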
